A study of Mus musculus with 3 samples.

Results

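The Ikaros family comprises 5 genes, Ikzf1 to Ikzf5, that encode zinc finger transcription factors. They were taken by symbol from the 27998 genes measured in 3 single-cell libraries of mouse bone marrow. All 3 are labelled as bone marrow cells of C57BL/6J mice, with no genetic change named. The growth and treatment protocols on the same records describe a different material, cultured Id3-ERT2 progenitors taken off 4-OHT to induce B cell differentiation. The records conflict on this point, and the samples were taken as bone marrow because the sample labels and the sorting step name it. The first population, called LMPP for lymphoid-primed multipotent progenitors, had the gate cKit+ Sca1+ Flt3+ IL7Ra- B220-. The common lymphoid progenitors (CLP) were cKit+ Sca1+ IL7Ra+ B220-, with or without Flt3. The pro-B cells were cKit+ Sca1- Flt3- IL7Ra+ B220+. The labels name no age, sex or number of animals and do not say whether animals were pooled.

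In the textbook account, the N-terminal zinc fingers of these proteins bind DNA at sites with the core GGGAA, and the C-terminal fingers let family members pair with each other. Ikaros (Ikzf1) is required for the lymphoid lineages, Helios (Ikzf2) is known from stem cells and T cells, and Aiolos (Ikzf3) from B cells after commitment and from mature lymphocytes. Eos (Ikzf4) is known from regulatory T cells, and Pegasus (Ikzf5) is the most divergent member, expressed in many tissues. Ikaros and its relatives recruit chromatin complexes, chiefly the nucleosome remodelling and deacetylase complex (NuRD), and can both lower and raise the genes they bind.

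Each population is 1 library, so no difference below has a replicate and no test was run. Every interval is an exact 95% interval for counting error only. Levels are unique molecular identifiers (UMIs, each marking 1 captured transcript) per 1000000 UMIs of the kept cells, written CPM. Because 3' counting gives 1 UMI per transcript whatever its length, CPM can be set side by side between genes without a length correction. About 3000 cells were loaded per the labels, and the matrices hold 599 LMPP, 979 CLP and 1123 pro-B barcodes, of which 579, 948 and 1106 cells were kept. The kept cells hold 4014657, 5967352 and 7367156 UMIs in that order. Receptor transcripts followed the sort gates. Flt3 stood at 279 CPM in LMPP, 300.5 CPM in CLP and 5.16 CPM in pro-B, and Il7r at 3.74, 141 and 104 CPM. The B cell gene Ebf1 had a UMI in 1.04% of LMPP, 57% of CLP and 99.8% of pro-B cells. Ribosomal protein transcripts took 43.5%, 41.9% and 29.6% of all UMIs, which bears on the scaling of pro-B against the other 2 libraries. Scaling without ribosomal and mitochondrial genes moved every log2 ratio of pro-B over CLP by -0.31 and of pro-B over LMPP by -0.34, against -0.03 for CLP over LMPP.

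The 5 genes lie at separate loci (GRCm38, GENCODE M21), all annotated as protein coding. Ikzf1 spans chr11:11685003-11772926 on the plus strand, and Ikzf3 lies far along the same chromosome at chr11:98464902-98546031 on the minus strand. Ikzf2 is at chr1:69531214-69687245, Ikzf4 at chr10:128630843-128645991 and Ikzf5 at chr7:131388652-131410521, all on the minus strand. The 3' end of Ikzf5, where 3' reads fall, overlaps Pstk on the opposite strand, which had 105 UMIs in the LMPP library, 135 in CLP and 113 in pro-B. The labels do not say how the counting used strand, so Ikzf5 counts are less certain than the others. The gene that overlaps the 3' end of Ikzf2, Gm29114, had 0 UMIs in all 3 libraries.

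Ikzf1, the member with the highest total in each library, has 2 RefSeq start sites, 4252 bases apart (GRCm38.p6, plus strand). The 250 bases before each start are shown because the counts below are the sum over both: reads from the shared 3' end do not tell them apart. Capitals mark the core GGGAA on either strand.
Ikzf1 start 1, chr11:11685675-11685924: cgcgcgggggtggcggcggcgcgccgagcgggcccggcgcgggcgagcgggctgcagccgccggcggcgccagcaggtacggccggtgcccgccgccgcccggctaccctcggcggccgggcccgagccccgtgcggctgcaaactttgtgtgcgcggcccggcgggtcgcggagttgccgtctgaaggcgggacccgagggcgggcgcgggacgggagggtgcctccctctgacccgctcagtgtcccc
Ikzf1 start 2, chr11:11689927-11690176: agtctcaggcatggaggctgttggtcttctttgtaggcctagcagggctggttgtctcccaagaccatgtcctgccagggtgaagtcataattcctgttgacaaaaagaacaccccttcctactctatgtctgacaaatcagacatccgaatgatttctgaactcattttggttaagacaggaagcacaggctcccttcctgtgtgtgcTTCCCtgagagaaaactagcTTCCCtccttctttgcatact
The windows differ in base composition. The first holds 44 CG dinucleotides at 82% G and C and has no GGGAA on either strand. The second holds 1 CG at 47.6% G and C and has 2 copies of GGGAA, both on the minus strand, read as TTCCC in the line above. Over 32851 RefSeq windows of the same length, the median is 6 CG and 56.2% hold the core on at least 1 strand, so its presence in the second window is common. No level below can be assigned to either window.

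Ikzf1 was highest in CLP. It had 516 UMIs (128.5 CPM, interval 117.7 to 140.1) in LMPP, 1236 UMIs (207 CPM, 196 to 219) in CLP and 656 UMIs (89.0 CPM, 82.4 to 96.1) in pro-B. The order is therefore CLP, LMPP, pro-B, and no 2 of the 3 counting intervals overlap. Per cell this was 0.891 UMIs for LMPP, 1.30 for CLP and 0.593 for pro-B. CLP stood 1.61-fold above LMPP, a log2 ratio of 0.69 (0.54 to 0.84). Pro-B stood 2.33-fold below CLP (log2 ratio -1.22, -1.36 to -1.08), or -1.53 without ribosomal and mitochondrial genes. Pro-B against LMPP gave -0.53 (-0.70 to -0.36), or -0.87 under that scaling, so the distance between these 2 libraries depends on the scaling more than on the counting error.

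Ikzf2 was lower at each step. It had 245 UMIs (61.0 CPM, 53.6 to 69.2) in LMPP, 95 UMIs (15.9 CPM, 12.9 to 19.5) in CLP and 16 UMIs (2.17 CPM, 1.24 to 3.53) in pro-B. The intervals are separate throughout. CLP stood 3.83-fold below LMPP (log2 ratio -1.94, -2.30 to -1.59) and pro-B 7.33-fold below CLP (-2.87, -3.74 to -2.10). From LMPP to pro-B the gap came to 28.1-fold (-4.81, -5.64 to -4.08). In LMPP the level of Ikzf2 was below that of Ikzf1 but above that of Ikzf5, and in pro-B it was below both.

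Ikzf3 was rare everywhere. It had 0 UMIs in LMPP, where the exact upper limit is 0.919 CPM. The CLP library held 26 UMIs (4.36 CPM, 2.85 to 6.38) and the pro-B library 20 UMIs (2.71 CPM, 1.66 to 4.19). Against a floor of 3 UMIs for LMPP, Ikzf3 was 5.83-fold higher in CLP (counting interval 1.79 to 30.1) and 3.63-fold higher in pro-B (1.08 to 19.1). That floor, 0.747 CPM, is under the exact upper limit, so these folds are not lower bounds. The log2 ratio of pro-B over the floor was 1.86 (0.11 to 4.25), or 1.52 without ribosomal and mitochondrial genes. That scaling moves this ratio by -0.34, a larger distance than from the lower limit of 0.11 to 0. Whether pro-B stood above the floor beyond counting error therefore depends on the scaling. On total UMIs, CLP and pro-B did not differ beyond counting error (log2 ratio of pro-B over CLP -0.68, -1.60 to 0.21). Without ribosomal and mitochondrial genes the ratio was -0.99. That scaling moves every ratio of this comparison by -0.31, a larger distance than from the upper limit of 0.21 to 0. Whether the 2 libraries differ beyond counting error therefore depends on the scaling. These library totals hide a difference in which cells hold the UMIs, described below.

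The LMPP library held 3 UMIs of Ikzf4, the CLP library 2 and the pro-B library 1, each in a separate cell. All 3 values are at or under the 3-UMI floor (0.747, 0.503 and 0.407 CPM), so no fold is given and Ikzf4 was not measurable at this depth. Ikzf5 differed by less than 2-fold, with 94 UMIs (23.4 CPM, 18.9 to 28.7) in LMPP, 158 (26.5 CPM, 22.5 to 30.9) in CLP and 138 (18.7 CPM, 15.7 to 22.1) in pro-B. CLP and LMPP did not differ beyond counting error (log2 ratio 0.18, -0.20 to 0.56). On total UMIs, neither did LMPP and pro-B (pro-B over LMPP -0.32, -0.71 to 0.07). Pro-B stood below CLP by more than counting error (-0.50, -0.84 to -0.16), short of 2-fold. Without ribosomal and mitochondrial genes, pro-B gave -0.67 over LMPP and -0.81 over CLP. That scaling moves pro-B over LMPP by -0.34, a larger distance than from the upper limit of 0.07 to 0. Whether LMPP and pro-B differ beyond counting error therefore depends on the scaling.

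**Figure D1:**
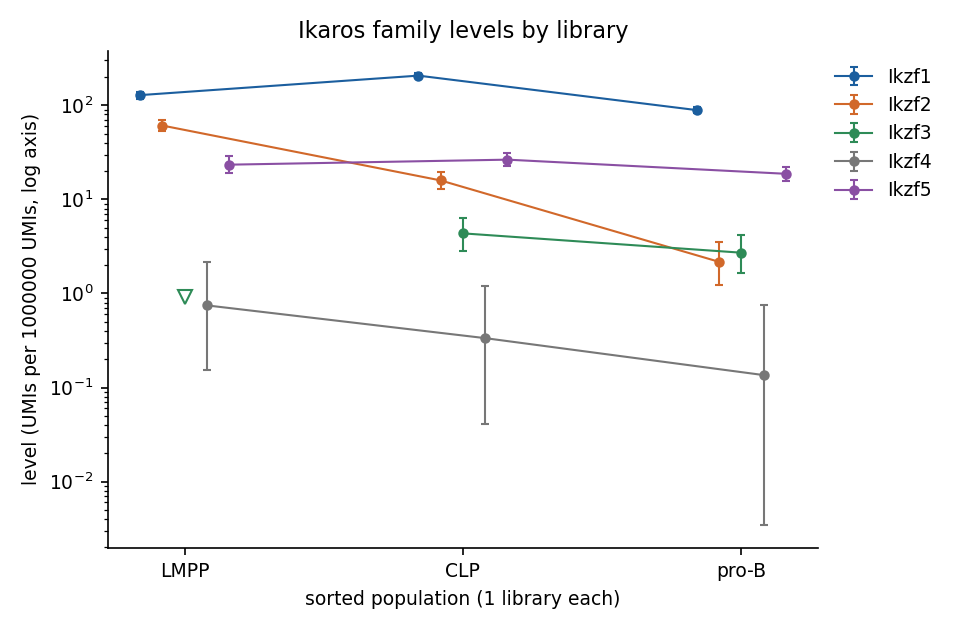
Level of each Ikaros family gene in UMIs per 1000000 (vertical log axis) in the LMPP, CLP and pro-B libraries, 1 library each; points are levels, bars are exact 95% Poisson intervals, lines join the points of a gene, and the open triangle is the upper bound of Ikzf3 at 0 UMIs in LMPP. Ikzf1 peaks at 207 CPM in CLP, Ikzf2 descends from 61.0 to 2.17 CPM and Ikzf5 stays between 18.7 and 26.5 CPM.

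A gene was called in a comparison when it differed 2-fold or more and reached 10 CPM in the higher library. Of the 5 members, 3 (Ikzf1, Ikzf2 and Ikzf5) passed the 10 CPM filter in each comparison. From LMPP to CLP 0 members were called higher, where 4.36% of 7747 genes were, and 1 (Ikzf2) was called lower, against 3.59% of genes. From CLP to pro-B 0 were called higher, against 13.9% of 7867 genes, and 2 (Ikzf1 and Ikzf2) were called lower, against 13.6%. Without ribosomal and mitochondrial genes in the total, 758 genes were called higher and 2150 lower from CLP to pro-B, against 1097 and 1069, so the direction of small differences at this step rests on the scaling. For pro-B over LMPP 0 were called higher and 1 (Ikzf2) lower, each against 14.7% of 7995 genes.

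To compare how many cells held a transcript, each cell was thinned to 2000 UMIs, which left out 6 LMPP, 40 CLP and 36 pro-B cells that were shallower. Ikzf1 was then found in 24.3% of LMPP, 36.1% of CLP and 16.8% of pro-B cells, against 54.7%, 68.5% and 39.9% before thinning. Ikzf2 was found in 12.0%, 3.63% and 0.561% (unthinned 33.7%, 8.02% and 1.45%). Ikzf5 was found in 5.06%, 5.29% and 4.11% (unthinned 14.9%, 14.1% and 11.0%). The orders of the Ikzf1 and Ikzf2 shares follow those of their levels. Ikzf3 was found in 0 of 573 thinned LMPP cells, where 3 cells would be 0.524% and the exact upper limit for cells with a UMI is 0.642%, in 0.441% of CLP and in 0.467% of pro-B cells (unthinned 0, 0.949% and 1.72%). Haemoglobin transcripts, which none of these cells should make and which serve as a measure of free RNA, were found in 5.06%, 0.991% and 6.17% of thinned cells. Shares of Ikzf3 in CLP and pro-B, of Ikzf2 in pro-B and of Ikzf5 in LMPP and pro-B are at or below the haemoglobin share of their library. Neutrophil granule transcripts, the other measure of free RNA, were found in 2.44%, 0.110% and 0% of thinned cells. The same member shares lie above the granule share of their library. Both marker shares differ between libraries and neither is a background measured for the members, so they cannot decide whether the members are expressed. The part of free RNA in the member shares was not tested. The member shares alone are not read as expression or as a difference between libraries. Which CLP cells held the Ikzf3 UMIs is described below.

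Ikzf1 was spread thinly over many cells. The CLP library had 164 cells with 3 or more Ikzf1 UMIs, LMPP 41 and pro-B 45, and the highest single cells held 7, 5 and 5. The 5 CLP cells with most Ikzf1 UMIs held 2.75% of its total, near the median of 3.10% over 239 genes with a like total in that library. In LMPP the 5 highest Ikzf2 cells held 6.53% of its UMIs, again near the 6.67% of like genes. In CLP the Ikzf2 share was 20.0%, against 11.3% for like genes, with 1 cell holding 8 UMIs and the next 3. In pro-B all 16 Ikzf2 UMIs lay in separate cells. Ikzf3 in CLP stood apart: 5 cells held 84.6% of its UMIs against a median of 25% over 917 like genes, and its highest cell held 10.

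**Figure D2:**
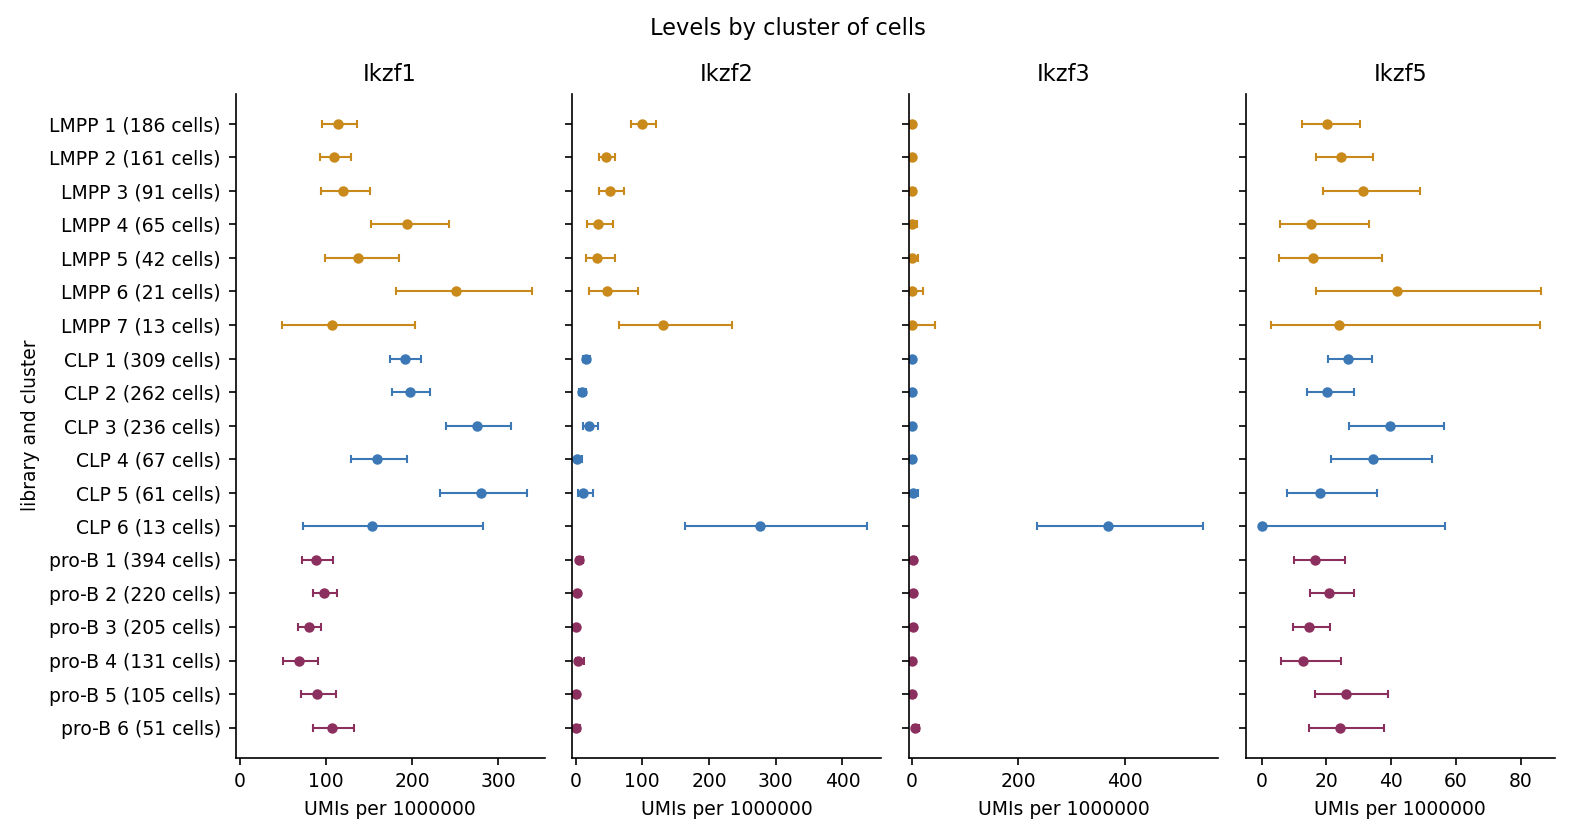
Level of Ikzf1, Ikzf2, Ikzf3 and Ikzf5 (UMIs per 1000000, horizontal axes, 1 scale per gene) in each cluster of cells of the 3 libraries, with the number of cells beside each cluster; points are summed levels and bars exact 95% Poisson intervals. Ikzf3 and Ikzf2 reach 368 and 276 CPM in CLP cluster 6, and Ikzf1 reaches 280 CPM in CLP cluster 5.

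The cells of each library were clustered separately, and clusters were named only where marker genes of a cell type led them. The clustering used up to 2 members among its 2000 variable genes, so levels by cluster are descriptions. A clustering without the 5 members, added after seeing the data, is given where it bears on a value. Within LMPP, Ikzf1 was highest in the 21 plasmacytoid dendritic-like cells (251 CPM, 181 to 339), a cluster led by Siglech, Irf8, Ly6d and Cox6a2. It stood at 194 CPM (153 to 242) in a cluster of 65 cells led by Ccr9, Ebf1 and Cd74. The other 5 LMPP clusters lay between 107 and 137 CPM. Within CLP the 61 plasmacytoid dendritic-like cells had the highest Ikzf1 level, 280 CPM (233 to 334). A cluster of 236 cells without a name had 276 CPM (240 to 315), at a median of 3153 UMIs per cell against 6258.5 over all CLP. The part of that low depth in its Ikzf1 level was not tested. The 262 early B-like CLP cells, led by Ebf1, Cd79a and Vpreb3, had 198 CPM (177 to 220), and the cluster with Igll1, Vpreb1 and mitotic transcripts had 159 CPM (129 to 194). In pro-B the 6 clusters ranged only from 68.5 to 107 CPM. Clustered without the members, the LMPP dendritic-like cluster came back with all 21 cells, whereas the CLP one merged into a cluster of 116 cells at 226 CPM (197 to 259).

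Ikzf2 within LMPP was highest in the 186 stem/multipotent-like cells and in a small interferon-response cluster. The stem/multipotent-like cells, led by genes that include Hlf, Procr and the megakaryocyte gene Pf4, had 100.2 CPM (82.4 to 121), 2.17 times the level of the other LMPP cells (1.67 to 2.81). They held 110 of the 245 Ikzf2 UMIs. The cluster of 13 cells led by Ifit1, Ifit3 and Isg15 had 131 CPM (65.3 to 234) on 11 UMIs. The other clusters lay between 31.9 and 51.0 CPM. Clustered without the members, the stem/multipotent-like cluster had 186 cells, 181 of them shared, at 101 CPM (83.0 to 122). The interferon cluster was not separate in that clustering. Of the 195 LMPP cells with an Ikzf2 UMI, 55.4% had Hlf, against 47.5% of all LMPP cells, at median depths of 6835 and 6789 UMIs.

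In CLP, 13 cells held most of the Ikzf3 and stood apart in Ikzf2. They form cluster 6, led by Gata3, Rora, Bcl11b and Id2, and were called natural killer or innate lymphoid-like (NK/innate-like) from the markers Gata3, Id2, Rora, Tcf7 and Il18r1. Ikzf3 is itself among the 10 leading genes of that cluster. They held 24 of the 26 Ikzf3 UMIs of CLP (92.3%), in 7 cells, a level of 368 CPM (236 to 548). The other 935 CLP cells held 2 Ikzf3 UMIs, 0.339 CPM. They also held 18 Ikzf2 UMIs in 9 cells, 276 CPM (164 to 437) against 13.05 CPM in the other CLP cells, 21.2 times higher (11.9 to 35.7). Ikzf1 in these cells, at 153 CPM (73.6 to 282), did not differ from the other CLP cells (208 CPM) beyond counting error. Ikzf5 had 0 UMIs in them, where the exact upper limit is 56.6 CPM, above the 26.8 CPM of the other cells.

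Cell by cell, the Ikzf3 counts in these 13 cells were 10, 4, 4, 2, 2, 1 and 1, with 0 in the other 6. The cell with 10 Ikzf3 UMIs had 4815 UMIs in all, 2 of Ikzf2, 14 of Gata3, 4 of Rora and 9 of Id2. The cell with 8 Ikzf2 UMIs had 0 of Ikzf3, 13 of Gata3, 15 of Rora and 8 of Bcl11b. Both members were found together in 4 cells. No cell of the cluster was called a doublet, and their median depth was 5131 UMIs.

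**Figure D3:**
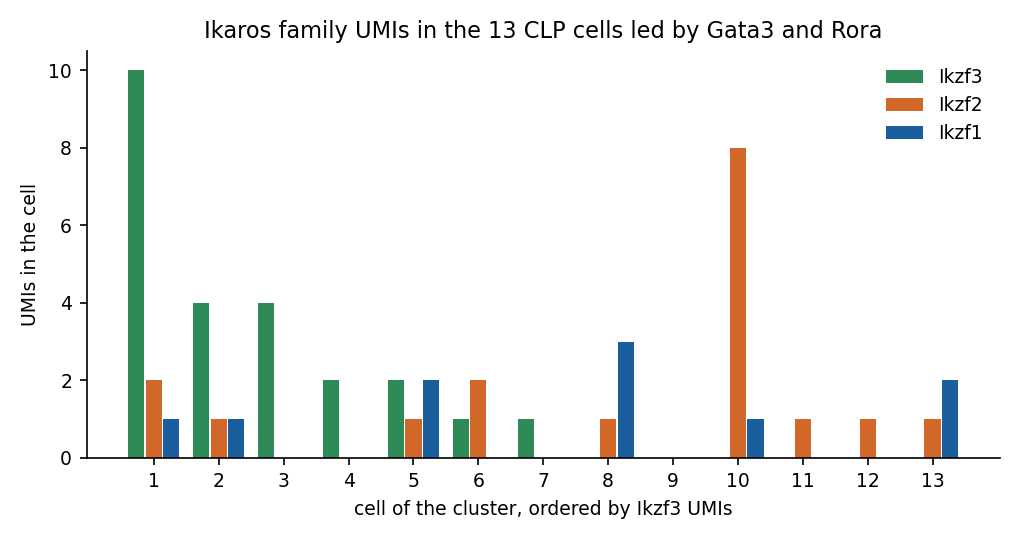
UMIs of Ikzf3, Ikzf2 and Ikzf1 (vertical axis) in each of the 13 CLP cells of cluster 6, numbered in order of their Ikzf3 UMIs (horizontal axis); each bar is 1 gene in 1 cell. Cell 1 holds 10 Ikzf3 UMIs and cell 10 holds 8 Ikzf2 UMIs.

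Of the 15 NK/innate markers, 9 were detected in these cells, with a summed level of 4834 CPM against 312 CPM in the other CLP cells. Gata3 stood at 1166 CPM, Id2 at 1519 CPM and Rora at 844 CPM. Of the natural killer genes, Nkg7 had 476 CPM, in 10 of the 13 cells, against 188 CPM in the other CLP cells. Ncr1 had 4 UMIs, all in 1 cell, and 0 in the other CLP cells. Il2rb, Il1rl1, Klrd1, Tbx21, Eomes and Zfp683 were at 0. The exact upper limit of 0 in these cells is 56.6 CPM, more than the 21.5 CPM of Klrd1 in the other CLP cells. The T cell markers Cd3d, Cd3g and Cd28 were at 0, whereas Bcl11b had 476 CPM and Thy1 276 CPM. The early B genes Pax5, Cd79a, Vpreb1 and Igll1 were at 0. Clustered without the members, the 13 cells fell in a cluster of 22 that again held 92.3% of the Ikzf3 UMIs of CLP, at 218 CPM (140 to 325), with Ikzf2 at 236 CPM (154 to 346). Free of any clustering, 7 of the 9 CLP cells with an Ikzf3 UMI had Rora and 6 had Gata3, against 2.95% of all CLP cells for each.

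Ikzf3 in pro-B was thinly spread. It was found in 19 cells, 18 with 1 UMI and 1 with 2. All 19 had Ebf1 and Cd79a, as did 99.8% of all pro-B cells for each gene. None had Gata3, Id2 or Rora, which were found in 0.181%, 2.08% and 0.181% of pro-B cells, so the cells with Ikzf3 were not marked out by these genes. They were deep cells, with a median of 11232 UMIs against 5687.5 over pro-B, and the part of depth in where these UMIs fell was not tested. Cells with G2/M transcripts held 16 of the Ikzf3 UMIs (3.21 CPM, 1.84 to 5.21) and S phase cells 3 (2.39 CPM). Cells with few cycle transcripts held 0, where the exact upper limit is 3.49 CPM. These levels overlap within counting error. Without the dendritic-like and NK/innate-like clusters, pro-B over CLP gave a log2 ratio of 3.89 for Ikzf3 (2.37-fold to 614-fold), with 20 UMIs against 1. All cells gave -0.68. The NK/innate-like cluster held 24 of the 26 Ikzf3 UMIs of CLP, so a higher ratio without it was fixed in advance. The value is a description only.

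Ikzf2 was lower in S phase cells of LMPP and CLP than in cells with few cycle transcripts, and Ikzf1 did not differ beyond counting error. Thinned cells were sorted by their transcripts into G2/M (3 or more UMIs of 18 mitotic genes), S phase only (3 or more UMIs of 18 replication genes) and neither, and the full counts were summed. In LMPP, Ikzf2 stood at 72.0 CPM in 404 cells with neither, 41.6 CPM in 150 S phase cells (0.578 times, 0.415 to 0.793) and 26.6 CPM in 19 G2/M cells (0.369 times, 0.0995 to 0.960). In CLP it stood at 21.5 CPM in cells with neither and 9.43 CPM in S phase cells (0.438 times, 0.246 to 0.739). The 59 G2/M cells of CLP had 0 Ikzf2 UMIs, where the exact upper limit is 7.95 CPM. In pro-B it stood at 6.62 CPM on 7 UMIs in cells with neither and at 1.40 CPM on 7 UMIs in G2/M cells (0.212 times, 0.0635 to 0.709). The S phase against neither ratio of pro-B (0.240, 0.0243 to 1.26) spans 1. The pro-B values rest on few UMIs, at a share of cells below that of haemoglobin but above that of neutrophil granule transcripts. The median depth was 3082 UMIs in cells with neither and 8329 in G2/M cells. The part of free RNA and depth in the pro-B values was not tested. Without the stem/multipotent-like cluster the S phase ratio of LMPP was 0.677 (0.455 to 0.992) and the G2/M ratio 0.489 (0.130 to 1.29). Without the NK/innate-like cluster the S phase ratio of CLP was 0.421 (0.218 to 0.760). All 6 ratios of cycling over other cells for Ikzf1 lay between 0.895 and 1.38, and every interval spans 1.

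**Figure D4:**
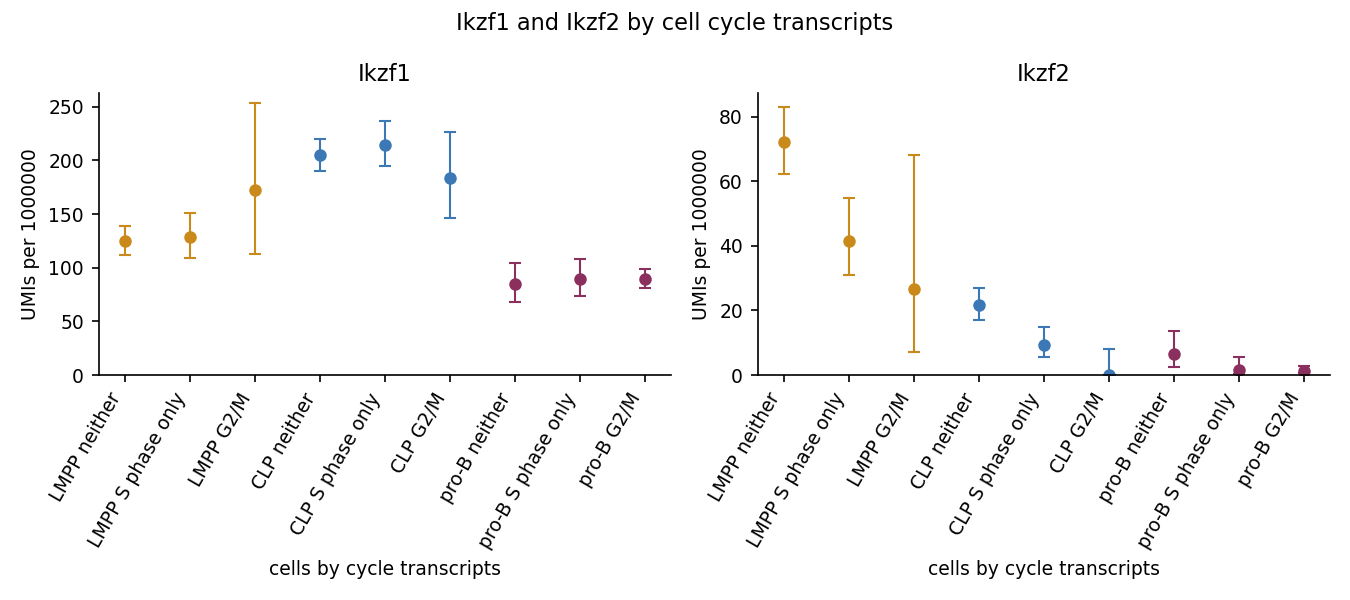
Level of Ikzf1 (left) and Ikzf2 (right) in UMIs per 1000000 (vertical axes from 0) in cells of each library with few cycle transcripts (neither), S phase transcripts only, or G2/M transcripts; points are summed levels and bars exact 95% Poisson intervals. Ikzf2 in LMPP goes from 72.0 CPM in cells with neither to 26.6 CPM in G2/M cells, while Ikzf1 in CLP lies between 183 and 215 CPM.

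Lineage transcripts divided the cells further. LMPP cells with a UMI of the granule genes Mpo, Prtn3, Elane or Ctsg had less Ikzf1 than those without (111 against 143 CPM, 0.777 times, 0.649 to 0.929) and more Ikzf2 (71.3 against 52.0 CPM, 1.37 times, 1.06 to 1.78). In CLP the same division gave the opposite direction for Ikzf1, with 250 CPM in the 107 cells with a granule transcript and 200 CPM in those without (log2 ratio 0.32, 0.09 to 0.55). The difference between these ratios was not tested. LMPP cells with Dntt, the terminal transferase that marks lymphoid priming, had less Ikzf2 than those without (50.3 against 68.3 CPM, 0.736 times, 0.556 to 0.968). For Ikzf1 the ratio was 1.07 (0.890 to 1.28).

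Along the B lineage states of CLP, Ikzf1 lay between 192 and 235 CPM, against 207 CPM over all CLP cells. It stood at 200.2 CPM in 308 cells with neither Ebf1 nor Ly6d, 235 CPM in 231 cells with Ly6d but no Ebf1, 192 CPM in 342 cells with Ebf1 but no Pax5, and 209 CPM in 27 cells with Pax5. Against the first state, the ratio of the Ly6d state was 1.17 (1.01 to 1.35), or 1.15 (0.994 to 1.33) without the NK/innate-like cluster, and the other 2 intervals span 1. The widest gap lay between the Ly6d state (interval 211 to 260 CPM) and the Ebf1 state (174 to 211 CPM). Without the NK/innate-like cluster these states had 233 and 192 CPM. No ratio between them was computed. Ikzf2 stood at 22.7, 15.1 and 11.0 CPM in the first 3 states. It had 0 UMIs in the Pax5 cells, where the exact upper limit is 27.6 CPM. The Ebf1 state over the first gave 0.485 (0.284 to 0.810), but 0.579 (0.319 to 1.03) without the NK/innate-like cluster, so that step is no longer beyond counting error without those 13 cells. For Ikzf5, no interval of a state over the first state excluded 1.

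In thinned cells, Ikzf1 was found with Ikzf2 and with Ikzf5 in numbers of cells close to those from the product of their shares. Ikzf1 and Ikzf2 shared 15 LMPP cells against 16.7 from the product, and 10 CLP cells against 11.9. Ikzf1 and Ikzf5 shared 10 LMPP cells against 7.03, 17 CLP cells against 17.3 and 6 pro-B cells against 7.40. In pro-B, Ikzf1 and Ikzf3 shared 3 cells against 0.841. In CLP, Ikzf2 and Ikzf3 shared 1 thinned cell against 0.145, and before thinning they shared the 4 cells of the NK/innate-like cluster given above. These counts are small, and the exact intervals of both shares span the product.

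Over the 17 clusters with 20 or more cells, the genes closest to each member in log2(CPM + 10) were taken from 9460 genes by Pearson's r. These r values are descriptions over clusters that share libraries and depth. Irf2bp2, which encodes a transcriptional corepressor partner, was closest to Ikzf1 (r = 0.97), with levels of 61.5 CPM in the LMPP library, 106 CPM in CLP and 20.5 CPM in pro-B. Dirc2 (r = 0.95) and Cox6a2 (r = 0.94), the latter a respiratory chain subunit and one of the plasmacytoid dendritic markers, came next. For Ikzf2 the closest were Arrdc4 (r = 0.96; 18.2, 5.36 and 0.543 CPM), Cela1 (r = 0.94) and Lst1 (r = 0.94). For Ikzf5 they were Pbld2 (r = 0.83), Atmin (r = 0.77) and Zfp709 (r = 0.75). By Spearman's rho, 1 of 3 genes was again among the closest for Ikzf1 (Irf2bp2), 1 of 3 for Ikzf2 (Arrdc4) and 0 of 3 for Ikzf5. Between members, r was 0.34 for Ikzf1 and Ikzf2, 0.49 for Ikzf1 and Ikzf5, and 0.21 for Ikzf2 and Ikzf5. Ikzf3 and Ikzf4 had under 50 UMIs in all and were left out.

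The genes of NuRD, the main partner complex, moved in both directions. Of the 14 NuRD genes, 1 was called higher in CLP than in LMPP and 0 lower, against 4.36% and 3.59% of all genes. Here and below, such shares of all genes are counted over the genes that passed the 10 CPM filter. Mta3, a variable subunit, had 85.2 CPM in LMPP and 302 CPM in CLP (log2 ratio 1.83, 1.66 to 1.998). The list's median log2 ratio was 0.12, against -0.01 over all genes that passed the filter. From CLP to pro-B 4 were called higher (Rbbp4, Rbbp7, Hdac1 and Mbd2) and 2 lower (Mta3 and Chd3), against 13.9% and 13.6% of all genes. The median was 0.06, against 0.06 over all genes that passed the filter. Without ribosomal and mitochondrial genes in the total, the counts were 1 higher (Rbbp4) and 3 lower (Chd3, Mta1 and Mta3). Rbbp4, a histone chaperone, went from 115 to 305 CPM, and Hdac1, a deacetylase, from 57.3 to 124 CPM. Mta3 came back to 142 CPM. Chd3 and Chd4 encode the alternative Mi-2 remodelling ATPases, and of these Chd3 went from 148 to 59.2 CPM whereas Chd4 stood at 149, 156 and 146 CPM over the 3 libraries.

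Of 11 other partners from the CtBP, Sin3, BRG1 and Polycomb complexes, 1 was called higher in CLP than in LMPP (Suz12, at 2.02-fold) and 0 lower, against 4.36% and 3.59% of all genes, with a median log2 ratio of 0.13 against -0.01. Without ribosomal and mitochondrial genes in the total, Suz12 was not called. From CLP to pro-B 5 were called higher and 1 lower, with or without ribosomal and mitochondrial genes in the total. The share over all genes was 13.9% higher and 13.6% lower with them (758 and 2150 of 9272 genes without), and the list's median log2 ratio was 0.76 against 0.06. Smarca4, the BRG1 remodelling ATPase, had 57.5 CPM in the LMPP library, 99.9 in CLP and 543 in pro-B, and Ezh2, the Polycomb methyltransferase, 60.3, 94.2 and 406 CPM. Sin3b, Smarcb1 and Rbbp8 were the other 3 called higher. Ctbp2, a corepressor, was the gene called lower, at 21.4, 11.9 and 3.66 CPM.

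The third list held 11 genes that act on Ikaros proteins: the cereblon ubiquitin ligase, through which thalidomide analogues degrade the human Ikaros and Aiolos proteins, and the casein kinase and phosphatase subunits that set Ikaros phosphorylation. From LMPP to CLP 0 were called in either direction, against 4.36% of all genes higher and 3.59% lower. From CLP to pro-B 3 were called higher (Ppp1ca, Rbx1 and Csnk2b) and 0 lower, against 13.9% and 13.6% of all genes. Of the 11 genes, 9 passed the 10 CPM filter. The median log2 ratio of all 11 was 0.63, against -0.08 over all genes with 10 or more UMIs in the 2 libraries together. Without ribosomal and mitochondrial genes in the total, 1 was called higher (Ppp1ca) and 2 lower (Cul4a and Csnk2a1). Crbn, the substrate receptor, stood at 13.9, 12.7 and 18.6 CPM. Ppp1ca, a phosphatase catalytic subunit, went from 397 CPM in CLP to 1122 CPM in pro-B.

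Genes known as lowered by Ikaros or Aiolos in B cell precursors did not move as 1 group. Of the 10 genes, 8 passed the 10 CPM filter. From LMPP to CLP 5 were called higher (Ccnd3, Hes1, Vpreb2, Vpreb1 and Igll1) and 0 lower, against 4.36% and 3.59% of all genes. From CLP to pro-B 4 were called higher and 2 lower, against 13.9% and 13.6% of all genes, or 3 lower with Itgb1 without ribosomal and mitochondrial genes. The median log2 ratio of all 10 was 0.95 from LMPP to CLP and 0.83 from CLP to pro-B. Over all genes with 10 or more UMIs in the 2 libraries together it was -0.01 and -0.08. The surrogate light chain genes Igll1 and Vpreb1 went from 24.3 and 43.7 CPM in CLP to 2909 and 3316 CPM in pro-B. Myc went from 134 to 23.6 CPM and Ccnd2, which encodes a D cyclin, from 408 to 115 CPM, while Ccnd3 went from 261 to 836 CPM.

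Of 12 genes known as raised by Ikaros in lymphoid or B cell precursors, 8 were called higher from LMPP to CLP (among them Dntt, Il7r, Blnk, Cd79a, Rag1, Foxo1 and Rag2) and 0 lower, against 4.36% and 3.59% of all genes, with a median log2 ratio of 2.34 against -0.01. From CLP to pro-B 5 were called higher (Cd79a, Cd79b, Blnk, Foxo1 and Rag2) and 2 lower, among them Flt3. The shares of all genes were 13.9% and 13.6%. The list's median log2 ratio at this step was 0.36, against 0.06 over all genes that passed the filter. Without ribosomal and mitochondrial genes Foxo1 and Rag2 were no longer called. Cd79a, a subunit of the B cell receptor, had 92.2 CPM in CLP and 1851 CPM in pro-B, and Rag2, of the recombinase, 37.5 and 79.1 CPM. Flt3 and Il7r were part of the sort gates, so their place on this list is not independent of how the cells were chosen.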

How the data were processed

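Single-cell 3' libraries (10x Genomics, version 2 chemistry) were made from sorted LMPP, CLP and pro-B cells, 1 library each. The authors deposited raw UMI counts per gene and barcode, for which the submitters' processing notes name Cell Ranger and the build mm10, without a version. Gene names and barcodes are the deposited labels of those counts. Kept cells had 500 genes or more, and mitochondrial UMIs of 10% or less. Counts were summed per library and scaled to CPM, with exact Poisson intervals for levels, exact conditional intervals for ratios and Clopper-Pearson intervals for shares, all for counting error only, since PCR and library preparation were not replicated. A library at 0 was set to a floor of 3 UMIs. A gene was called at 2-fold or more with at least 10 CPM in the higher library. In simulated counts, all 67 genes set 3-fold apart between CLP and LMPP were called, and 1 of 67 set 1.5-fold apart. Of 7330 unchanged genes, 5 were called. The changed genes were drawn from levels above those of Ikzf3 and Ikzf4, with counting error as the only noise. The simulation therefore does not cover levels as low as theirs or the shift from ribosomal transcripts.

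Cells were clustered per library (scanpy 1.11.5, 10000 counts per cell, 2000 variable genes, 20 components, 15 neighbours, Leiden resolution 0.5). A cluster was named when at least 2 markers of 1 of 14 cell type lists were among its 10 leading genes and 3 among its 30. Doublets were called with scrublet (30 LMPP, 14 CLP and 2 pro-B cells at an expected 1%) and left out only as an alternative. The libraries shared 3 barcodes (CLP and LMPP), 2 (CLP and pro-B) and 1 (LMPP and pro-B). Genes named in the text are the 5 members, the 3 closest genes to each member with 50 or more UMIs, members of 5 pathway lists called in a comparison, and cluster markers; Chd4, Crbn, genes called only under another scaling and the markers at 0 were named after their values were seen. The members and lists were chosen with earlier results of these data known. Loci come from GENCODE M21 and start windows from RefSeq; of the 5 genes, 2 (Ikzf1 and Ikzf5) had a window there. Some genes that the naming rule covers are not reported here.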

Additional observations from a re-analysis of the deposited data

How the results depend on the processing

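The 8 alternatives for the ratios included 2 scalings, all barcodes, no doublet calls, equal weight per cell and no dendritic-like or NK/innate-like clusters. The others were cells with few cycle UMIs and no 5 highest cells. Under these, 85 values stayed within the counting interval of the reported ratio, 8 moved beyond it and 1 whose interval excluded 0 changed sign. Of the 85, Ikzf5 in CLP over LMPP changed sign in cells with few cycle UMIs (-0.16 against 0.18), where the interval of the reported ratio spans 0. The value whose interval excluded 0 was the log2 ratio of Ikzf3 in CLP over LMPP, a gene under the 10 CPM filter and so not called. It was -0.16 without the 5 cells with most UMIs, against 2.54. That value compares the few UMIs left in CLP with the LMPP floor. Without those cells Ikzf3 in pro-B over CLP was 1.5, and without the dendritic-like and NK/innate-like clusters 3.89. Both settings leave out the CLP cells that held most Ikzf3 UMIs, so both values are descriptions only. Ikzf1 in pro-B over CLP was -1.53 without ribosomal and mitochondrial genes and -1.51 with median-of-ratios scaling, and in pro-B over LMPP -0.87 and -0.82, as both scalings shift every gene. In cells with few cycle UMIs, Ikzf2 in pro-B was -1.70 over CLP and -3.44 over LMPP; the cause was not tested. Ratios whose libraries were both at or under the floor have no value.

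Of 120 counts of called genes 11 were marked as moved, and the other 109 were not all unchanged. At 4-fold, members called lower were 0 from LMPP to CLP and 1 from CLP to pro-B, and at 50 CPM 1 from CLP to pro-B. With no filter on low counts, 1 member was called higher from LMPP to CLP and 1 from LMPP to pro-B. Of the 58 listed genes, 21 were called higher and 7 lower from CLP to pro-B, which became 14 and 11 under each scaling, and 8 and 3 at 4-fold. For pro-B over LMPP, 26 higher and 6 lower became 14 and 3 at 4-fold. The fall from 21 to 14 under each scaling is not among the 11 marked as moved. Neither is the fall from 26 to 21 under each scaling for pro-B over LMPP. Shares of cells moved in 30 of 70 settings, chiefly with the thinning depth. The share of CLP Ikzf3 UMIs in 1 cluster was 92.3% at both other resolutions. Ikzf4 was at or under the 3-UMI floor in each library, so depth allows no ratio for it. No paired analysis was possible because each population has 1 library.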
